A study of Mus musculus with 14 samples.

Results

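The genes described here are 10 members of the BCL-2 family that set the threshold for mitochondrial cell death, followed in group 2 innate lymphoid cells (ILC2s) of mouse lung. They were matched by symbol, with earlier results of these data known, as 5 pro-survival genes (Bcl2, Bcl2l1, Mcl1, Bcl2a1b and Bcl2a1d), 3 BH3-only genes (Bcl2l11, Pmaip1 and Bbc3) and 2 effector genes (Bax and Bak1). All 10 were found among the 53278 genes of the count and TPM tables, and all 10 passed the filter on low counts in both experiments. RNA-seq was made from 14 libraries of lung ILC2s sorted from female mice as live, lineage-negative, CD90.2+ and CD3- cells. The stimulation experiment held 4 Unstimulated and 4 IL-33 stimulated libraries from B6 mice, 1 mouse a library, the latter cultured for 24 h with IL-33 at 20 ng/mL. The labels and the design text put the Unstimulated cells in culture for 24 h without IL-33, whereas elsewhere the study calls them ex vivo. The Blimp-1 experiment held 3 Control (ControlIL7RaCre) and 3 Blimp-1-deficient (Blimp-1IL7RaCre) libraries, 1 mouse a library, all cultured for 72 h with IL-33 and IL-25 at 20 ng/mL each. The study's RNA-seq methods add IL-2 to that culture, which the labels do not list. Its general methods for ILC2 culture also hold IL-2, so whether the 24 h cultures had it is uncertain. Blimp-1, the transcriptional repressor encoded by Prdm1, was removed there by a Cre recombinase expressed from the Il7r locus, which acts in T, B and NK cells and in all innate lymphoid cells, so those ILC2s also developed without it. Exact ages were not given in the sources used here. The study's methods set only a lower bound, and the mice of the Blimp-1 experiment were matched for age. The design text gives 1 mouse a library, whereas captions of the figures that hold these data describe points from 2 pooled animals.

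The BCL-2 family decides whether the outer mitochondrial membrane stays intact. BAX and BAK, the effectors, form pores that release cytochrome c and start caspase activation, and BCL-2, BCL-XL (encoded by Bcl2l1), MCL-1 and A1 (encoded by the Bcl2a1 genes) hold them in check. BH3-only proteins such as BIM (Bcl2l11), NOXA (Pmaip1) and PUMA (Bbc3) bind the pro-survival proteins and free the effectors, and NOXA binds MCL-1 and A1 by preference. In lymphocytes, common gamma chain cytokines sustain BCL-2 and MCL-1, BIM is a main mediator of death on cytokine withdrawal, and A1 and BCL-XL are classical targets of NF-κB. Much of the control of these proteins lies after transcription, and counts per gene do not separate the long and short forms of BCL-XL and MCL-1, which act in opposite ways.

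A pair of members can be read only together. The mouse carries near-identical copies of the A1 gene on chromosome 9, of which Bcl2a1b (GRCm38 chr9:89199209-89207827, plus strand) and Bcl2a1d (chr9:88723285-88731914, minus strand) are members, and Bcl2a1a (chr9:88956900-88962419, plus strand) is a further copy. Over 516 coding bases, Bcl2a1d differed from Bcl2a1b at 6 (98.8% identity) and Bcl2a1a at 11 (97.9%). The first 120 coding bases of the 3 copies, read from the GENCODE vM21 transcripts and shown because reads from this stretch can be assigned only at the few differing bases, were as follows, with capitals for bases that differ from Bcl2a1b.
Bcl2a1b: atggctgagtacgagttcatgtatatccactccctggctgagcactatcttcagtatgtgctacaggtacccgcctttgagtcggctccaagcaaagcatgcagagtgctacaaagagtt
Bcl2a1d: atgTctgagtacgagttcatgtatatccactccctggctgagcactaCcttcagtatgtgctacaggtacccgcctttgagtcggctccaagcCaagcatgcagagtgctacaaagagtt
Bcl2a1a: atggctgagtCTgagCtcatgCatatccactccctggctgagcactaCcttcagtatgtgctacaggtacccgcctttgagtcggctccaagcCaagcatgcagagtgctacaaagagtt
Of all stretches of 75 bases, the read length, in the transcripts of Bcl2a1b, 68.4% also occurred in a transcript of another gene, and of those of Bcl2a1d 67.6%. The share of Bcl2a1b includes stretches held in common with Gm29094 (44.1%), a gene model on the same strand over 49.1% of its exon bases. Gm29094 itself had at most 2 counts in any library. Bcl2a1b shared 43.5% of its stretches with Bcl2a1d and 25.7% with Bcl2a1a. How reads with several matches were treated is not stated, so the values of Bcl2a1b and Bcl2a1d are uncertain one by one, and their sum with Bcl2a1a and Bcl2a1c is given beside them.

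Promoter windows are shown for the members with the largest falls after IL-33 (Bcl2l11 and Bcl2) and for the A1 copies, which rose. Each window runs from 250 bases before to 50 bases after a transcription start in RefSeq, on GRCm38.p6, 5′ to 3′ on the gene's strand. The motifs searched on both strands, with capitals marking matches, were a FOXO motif (TGTTTAC, in 3.65% of 32851 promoter windows of 300 bases), a Blimp-1 motif (AGNGAAAG, 8.63%), a STAT motif (TTCNNNGAA, 8.3%) and the degenerate NF-κB consensus (8.46%). The window of Bcl2l11, 1 of 2 listed for that gene, held 1 FOXO match and 1 Blimp-1 match, which did not overlap.
Bcl2l11 chr2:128125788-128126087 (plus strand): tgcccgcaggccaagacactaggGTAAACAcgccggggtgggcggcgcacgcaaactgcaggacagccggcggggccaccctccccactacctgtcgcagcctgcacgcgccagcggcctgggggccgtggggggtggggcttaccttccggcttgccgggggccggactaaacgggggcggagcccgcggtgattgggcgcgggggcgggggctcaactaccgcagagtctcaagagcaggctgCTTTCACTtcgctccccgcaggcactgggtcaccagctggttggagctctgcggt
Bcl2 chr1:106714241-106714540 (minus strand): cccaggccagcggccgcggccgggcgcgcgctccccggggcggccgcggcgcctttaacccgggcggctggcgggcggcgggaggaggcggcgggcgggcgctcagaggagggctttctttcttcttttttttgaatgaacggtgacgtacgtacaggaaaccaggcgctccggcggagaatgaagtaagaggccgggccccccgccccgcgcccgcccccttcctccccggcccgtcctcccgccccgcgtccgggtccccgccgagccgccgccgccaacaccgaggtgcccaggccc
Bcl2a1b chr9:89199023-89199322 (plus strand): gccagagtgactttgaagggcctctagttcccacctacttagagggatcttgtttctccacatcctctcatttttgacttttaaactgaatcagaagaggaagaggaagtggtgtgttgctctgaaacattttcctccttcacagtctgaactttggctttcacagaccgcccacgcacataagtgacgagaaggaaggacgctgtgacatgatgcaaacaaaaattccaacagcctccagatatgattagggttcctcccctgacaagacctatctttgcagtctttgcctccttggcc
Bcl2a1d chr9:88731801-88732100 (minus strand): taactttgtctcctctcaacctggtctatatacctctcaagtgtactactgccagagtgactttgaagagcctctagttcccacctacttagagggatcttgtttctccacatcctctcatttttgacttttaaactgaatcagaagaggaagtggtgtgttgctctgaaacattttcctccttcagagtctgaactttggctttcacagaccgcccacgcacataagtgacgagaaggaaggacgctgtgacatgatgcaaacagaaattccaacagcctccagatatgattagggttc
None of the 4 motifs was present in the other 3 windows, which says only that these letters do not occur there. The second window of Bcl2l11, not shown, held none either. Of the members not shown, a window of Bcl2l1 and a window of Bbc3 held NF-κB matches, and another window of Bbc3 held a FOXO match. The windows of Mcl1, Bax and Bak1 held none of the motifs. The windows of Bcl2a1b and Bcl2a1d aligned over 350 columns, with 247 identical bases, 3 mismatches and 100 gap bases.

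A pair of libraries stood apart from the rest of their groups, and the tests of the members are therefore given with and without them. Libraries held 10470125 to 32849428 counts where IL-33 was tested and 13570188 to 76448945 where Blimp-1 was. IL-33 stimulated replicate 3 was the shallowest library, put 12.2% of its TPM on the small nuclear RNA Rn7sk, and differed from the other 3 libraries of its group with an SD of log2 differences over genes of 1.80 to 1.87, against 0.40 to 0.48 among those 3. Control replicate 2 had 76.8% of its counts on 7 loci, among them CT010467.1, Gm23935, Gm26917, Lars2 and mt-Rnr2. These loci took 0.262% to 0.941% in the other libraries of the Blimp-1 experiment, and only 3150795 counts of that library fell on other genes. Of the 12 ILC2 markers examined, all had a mean TPM of at least 1 in each group. Markers of other cells were lower by comparison but present. The summed TPM of 8 T cell markers was 58.0 to 73.1 in the Unstimulated, 13.8 to 25.3 in the IL-33 stimulated, 35.5 to 36.2 in Controls 1 and 3 and 41.0 to 45.7 in the Blimp-1-deficient libraries, with Cd3g the highest of them in each group. That of 11 myeloid markers was 217 to 458 in the Unstimulated and 75.8 to 211 in the IL-33 stimulated libraries, mostly from Lyz2.

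In Unstimulated ILC2s the transcripts of MCL-1 were the most abundant of the family, and those of the effectors came next. Levels are compared between genes as TPM, which takes gene length into account. Mcl1 stood at 338 ± 6.28 TPM (SD, n = 4), Bak1 at 236 ± 13.9, Bax at 192 ± 13.6, Bcl2l1 at 95.7 ± 6.46 and Bcl2 at 51.3 ± 5.87. These 5 genes did not overlap with their neighbours in the order in any of the 4 libraries. Bbc3 followed at 15.3 ± 1.81 and Bcl2l11 at 11.3 ± 0.835 TPM, again apart from each other. Bcl2a1d (7.31 ± 1.70), Pmaip1 (5.03 ± 1.52) and Bcl2a1b (3.40 ± 0.410) were lowest, and their ranges overlapped from each to the next.

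After IL-33 the pro-survival genes moved in opposite directions. Bcl2l1 and both A1 genes rose, Bcl2 and, by less, Mcl1 fell, the BH3-only gene Bcl2l11 fell most of all members, and the effector Bax rose. At a threshold of 0.05 on p adjusted by Benjamini-Hochberg over 15466 genes (edgeR, quasi-likelihood test), 4 members rose and 3 fell, where 16.2% of all genes tested were called higher and 16.1% lower. These 7 were also the members in which the 4 libraries of 1 group did not overlap with the 4 of the other, which held for 37.9% of all genes tested. The median log2 fold change was 0.30 over the 10 members and 0.06 over all genes. Without IL-33 stimulated replicate 3, 6 members were higher and 3 lower, against 27.5% and 29.7% of 15733 genes. As the cells were measured in bulk, fewer cells of a kind and less RNA per cell cannot be told apart.

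**Figure D1:**
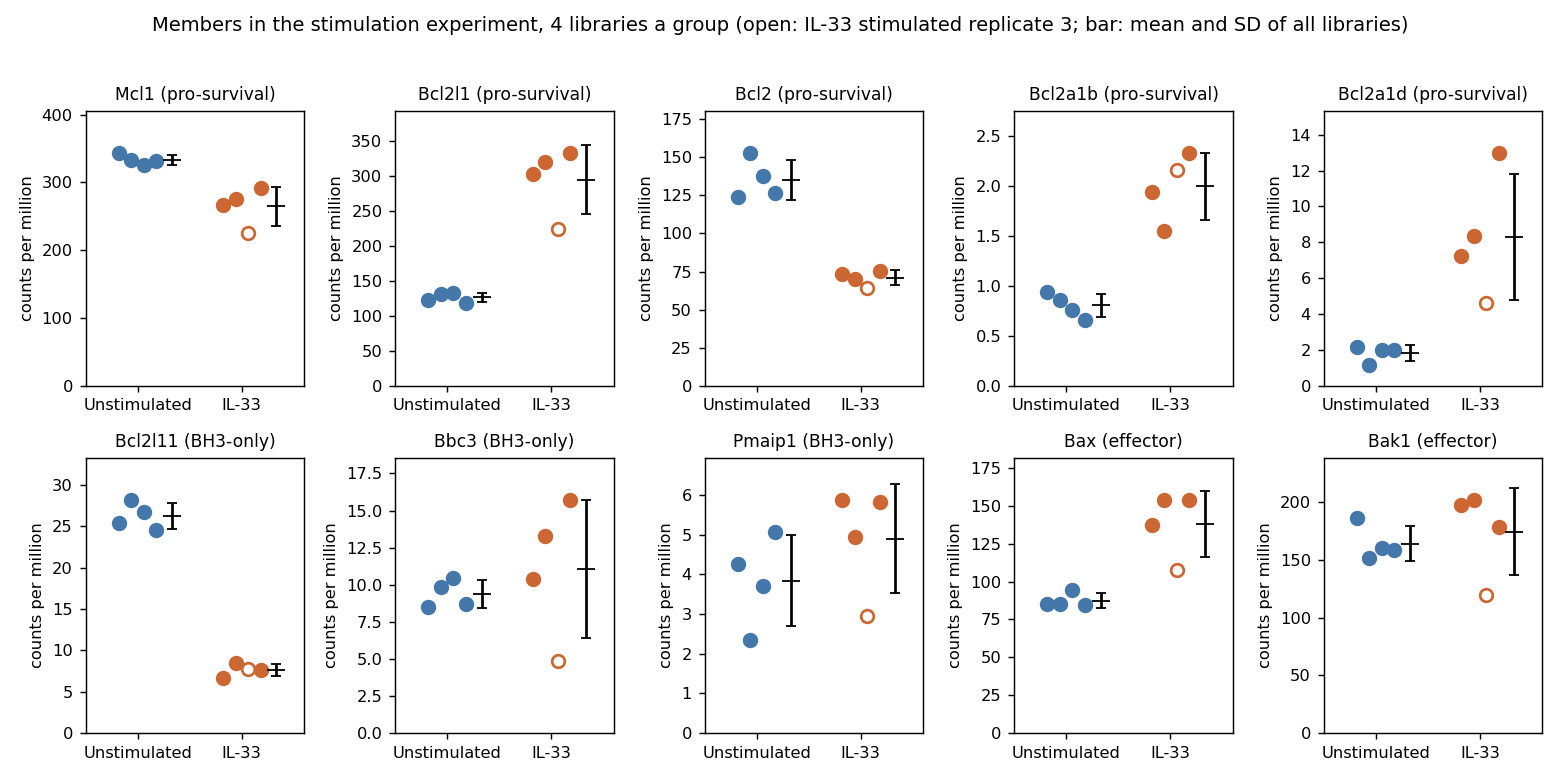
Normalised counts (CPM, y axis, starting at 0 in each panel) of the 10 members in the stimulation experiment, with 1 point per library, filled except for IL-33 stimulated replicate 3, and a bar for the mean and SD over all 4 libraries. In the panels of Mcl1, Bcl2l1, Bcl2, Bcl2a1b, Bcl2a1d, Bcl2l11 and Bax no library of one group lies within the range of the other, whereas the groups overlap for Bbc3, Pmaip1 and Bak1.

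Among the pro-survival members, Bcl2l1, which encodes BCL-XL, gave the clearest rise. Its normalised counts (CPM, counts scaled by the effective library size) were 123, 131, 133 and 119 in the Unstimulated libraries and 303, 320, 224 and 334 in the IL-33 stimulated libraries. The lowest IL-33 stimulated value, that of replicate 3, was still above the highest Unstimulated value. The rise was 2.33-fold (log2 fold change 1.22, SE 0.12, adjusted p = 0.000239), and 2.52-fold without that library (log2 1.33, adjusted p = 8.67e-08). The gene lies at chr2:152780668-152831728 on the minus strand.

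Bcl2, the founding member of the family, fell. It was at 124, 153, 138 and 127 CPM in the Unstimulated libraries and at 73.5, 70.4, 64.4 and 75.3 CPM after IL-33. The 4 IL-33 stimulated libraries lay close together and well below all Unstimulated libraries. The decrease was 1.91-fold (log2 fold change -0.93, SE 0.09, adjusted p = 0.000158) and 1.85-fold without replicate 3 (adjusted p = 6.08e-06). Bcl2 lies at chr1:106538178-106714274 on the minus strand, and D630008O14Rik, which lies on the opposite strand over 6.09% of its exon bases, had at most 2 counts in these 8 libraries. The T cell and myeloid sums given above were lower in the same libraries, as were those of 11 epithelial, endothelial and stromal markers (316 to 449 TPM before and 121 to 192 after) and of 7 mast cell and basophil markers (17.2 to 36.6 and 0.0921 to 2.38). Their part in the fall of Bcl2 and of Bcl2l11 was not tested.

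Mcl1 fell by less. Its values were 344, 333, 326 and 331 CPM in the Unstimulated and 267, 275, 225 and 292 CPM in the IL-33 stimulated libraries, again with no overlap. The decrease was 1.26-fold (log2 fold change -0.33, SE 0.08, adjusted p = 0.0184) and 1.20-fold without replicate 3 (adjusted p = 0.00168). The call was lost with no filter on low counts (adjusted p = 0.0925) and without IL-33 stimulated replicate 1 (adjusted p = 0.0564). Mcl1 occupies chr3:95658788-95663176 on the plus strand.

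The A1 genes were low and rose steeply. Bcl2a1d had 62, 41, 47 and 63 counts in the Unstimulated and 220, 257, 47 and 367 in the IL-33 stimulated libraries, or 1.17 to 2.15 and 4.63 to 13.0 CPM. The low count of replicate 3 came with its lower depth, and its CPM of 4.63 was above every Unstimulated value. The rise was 4.54-fold (log2 fold change 2.18, SE 0.36, adjusted p = 0.0025) and 5.23-fold without that library (adjusted p = 2.98e-05).

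Bcl2a1b went from 27, 30, 18 and 21 counts to 59, 48, 22 and 66, or from 0.662 to 0.938 CPM to 1.56 to 2.34 CPM. It rose 2.47-fold (log2 fold change 1.30, SE 0.25, adjusted p = 0.00486), and 2.40-fold without replicate 3 (adjusted p = 0.00152). Bcl2a1a had 2 to 12 counts before and 0 to 7 after IL-33, too few to pass the filter, and Bcl2a1c had none. Summed over the 4 copies, A1 stood at 2.29 to 3.51 CPM and 6.80 to 15.6 CPM, and rose by 1.86 on the log2 scale (SE 0.29, adjusted p = 0.00185), or by 2.02 without replicate 3 (adjusted p = 2.69e-05). The sum holds whichever copy a read came from, as far as reads with several matches were counted at all. The sum of the myeloid markers was lower in the same libraries, and its part in this result was not tested.

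Of the BH3-only members, Bcl2l11, which encodes BIM, had the largest fall. It was at 25.5, 28.2, 26.7 and 24.5 CPM in the Unstimulated and at 6.60, 8.42, 7.68 and 7.61 CPM in the IL-33 stimulated libraries. The groups were far apart compared with the spread within each, and replicate 3 lay within the range of the other 3. The decrease was 3.46-fold (log2 fold change -1.79, SE 0.12, adjusted p = 3.80e-05) and 3.47-fold without replicate 3 (adjusted p = 4.62e-07). Of all genes tested, 2.02% had a lower log2 fold change. Its position is chr2:128126038-128162547 on the plus strand, where no other annotated gene overlaps its exons.

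Pmaip1 and Bbc3, which encode NOXA and PUMA and are targets of p53, were not called with all 8 libraries. Bbc3 (chr7:16308393-16318205, plus strand) was at 8.51, 9.85, 10.5 and 8.70 CPM before and 10.4, 13.3, 4.83 and 15.7 CPM after IL-33. Replicate 3 lay below all 4 Unstimulated libraries and the other 3 at the top of their range or above it. Its log2 fold change was 0.24 (SE 0.33, adjusted p = 0.592), and 0.49 (SE 0.15, adjusted p = 0.0176) without replicate 3. Also without that library, it was not called with limma on log2 TPM (0.15, adjusted p = 0.329) or with library size alone (0.31, adjusted p = 0.0980).

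Pmaip1 was at 4.27, 2.35, 3.70 and 5.07 CPM before and 5.88, 4.96, 2.96 and 5.84 CPM after IL-33, with overlapping groups. Its log2 fold change was 0.35 (SE 0.32, adjusted p = 0.410) with all libraries and 0.53 (SE 0.23, adjusted p = 0.0764) without replicate 3.

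The effectors differed from each other. Bax (chr7:45461697-45466898, minus strand) rose from 85.5, 85.3, 94.7 and 84.5 CPM to 137, 154, 107 and 154 CPM. All IL-33 stimulated libraries were above all Unstimulated libraries, and the rise was 1.58-fold (log2 fold change 0.66, SE 0.12, adjusted p = 0.00367), or 1.70-fold without replicate 3 (adjusted p = 4.62e-06). Gm45808, on the same strand over 12.2% of its exon bases, had at most 1 count in any library, which does not show whether reads under both were lost. On log2(TPM + 1) with limma, which does not correct for composition, the log2 difference was 0.31 and the call was lost (adjusted p = 0.118). The median of all genes moved to -0.25 on that scale, against 0.06 in the count test.

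Bak1 (chr17:27019810-27029009, minus strand) was at 186, 152, 160 and 158 CPM before and 198, 202, 120 and 178 CPM after IL-33. Replicate 3 alone fell below the Unstimulated range. The log2 fold change was 0.09 (SE 0.16, adjusted p = 0.695) and became 0.23 (SE 0.08, adjusted p = 0.0269) without replicate 3. Its sign turned when the libraries were scaled by size alone (-0.075) and on the TPM scale (-0.27), so no direction is given. Ggnbp1, on the opposite strand over 25.5% of the exon bases of Bak1, had at most 66 counts in these libraries against at least 1217 for Bak1.

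**Figure D2:**
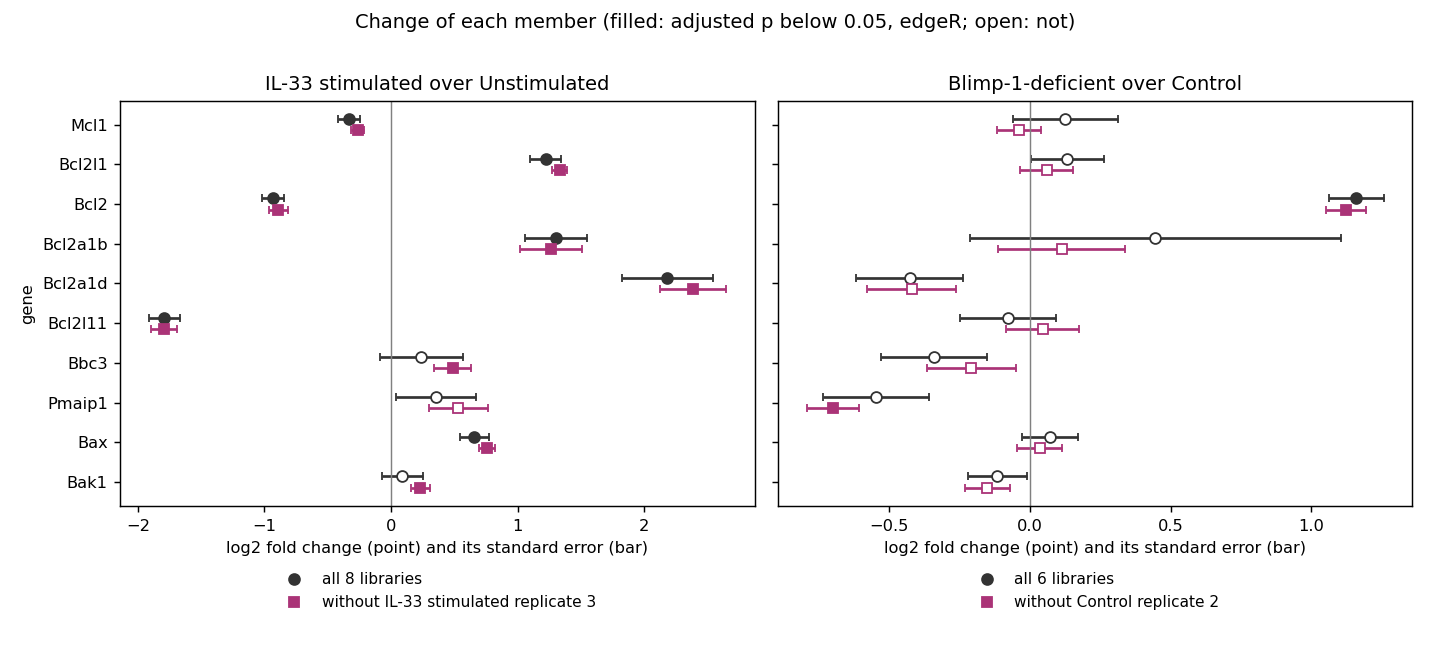
Log2 fold change (x axis, point) and standard error (bar) of each member (y axis) after IL-33, left, and in Blimp-1 deficiency, right, with all libraries (circles) and without the library that stood apart (squares), filled where the adjusted p was below 0.05. On the left Bcl2l11 is lowest at -1.79 and Bcl2a1d highest at 2.18, and on the right only Bcl2 is filled in both fits.

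The make-up of the pro-survival transcripts differed accordingly. Of the summed TPM of the 5 pro-survival members, Mcl1 held 68.2% ± 1.43 (SD, n = 4) in the Unstimulated and 48.1% ± 1.83 in the IL-33 stimulated libraries. Bcl2l1 held 19.3% ± 0.885 before and 39.7% ± 1.52 after, and Bcl2 10.3% ± 0.918 and 4.84% ± 0.440. Bcl2a1d and Bcl2a1b together remained small, with means of 1.48% and 0.688% before and 5.78% and 1.54% after. No library of one group overlapped with the other for any of these shares. The shares are ratios within a library and were not tested.

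**Figure D3:**
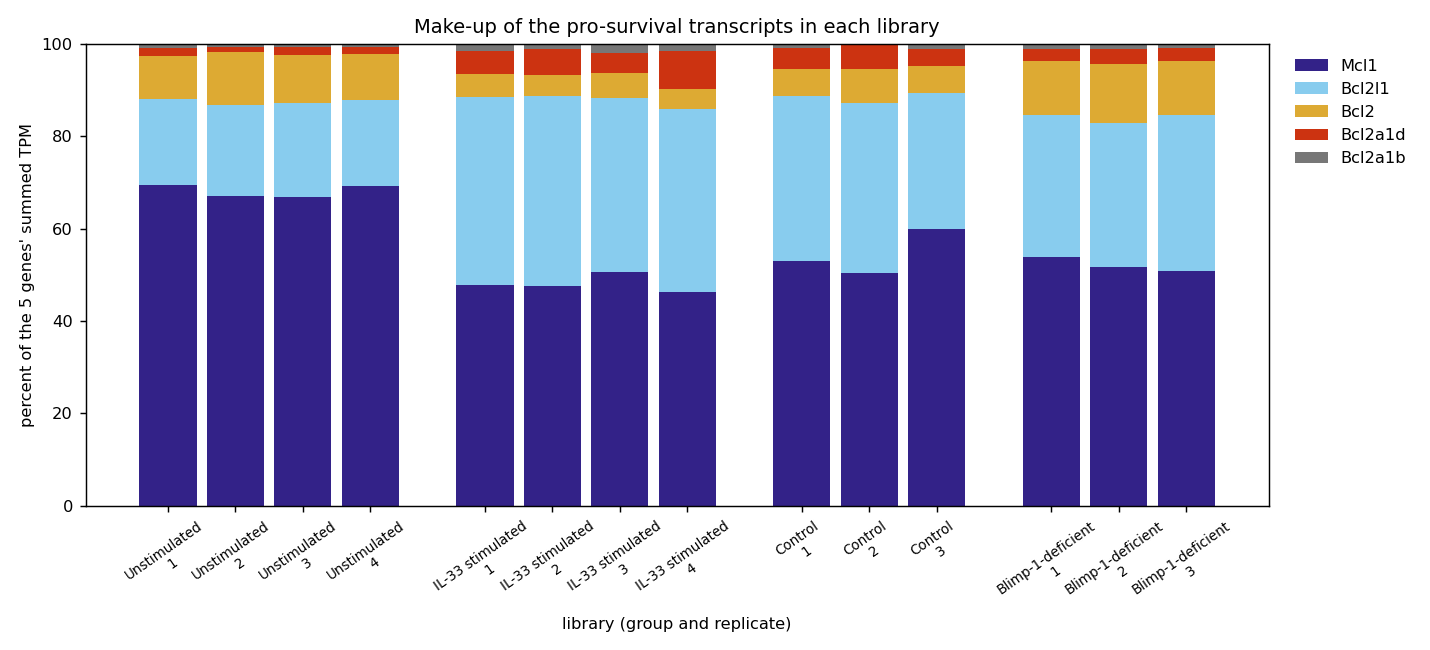
Percent of the summed TPM of 5 pro-survival genes (y axis) taken by each gene in each of the 14 libraries (x axis), stacked to 100. The Mcl1 block shrinks from 66.8% to 69.5% in the Unstimulated to 46.4% to 50.7% in the IL-33 stimulated libraries, the Bcl2l1 block widens, and the Bcl2 block is wider in the Blimp-1-deficient (11.6% to 12.7%) than in the Control libraries (5.78% to 7.19%).

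The order of levels after IL-33 was accordingly less steep at the top. Without replicate 3, Bax was highest at 263 ± 12.7 TPM (SD, n = 3), and Mcl1 (228 ± 1.36), Bak1 (224 ± 23.3) and Bcl2l1 (195 ± 3.12) followed with ranges that overlapped from each to the next. Bcl2a1d (30.6 ± 8.43), Bcl2 (22.3 ± 0.80) and Bbc3 (17.2 ± 2.80) were apart from each other in all 3 libraries. Bcl2l11 was lowest at 2.63 ± 0.309 TPM, below Bcl2a1b (6.63 ± 1.13) and Pmaip1 (5.88 ± 0.564). With replicate 3, ranges overlapped between all neighbours in the order except Bcl2l1 and Bcl2a1d.

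The genes outside the family whose pattern over the 8 stimulation libraries was closest to that of Bcl2a1d, by Pearson r of log2 CPM among 10730 genes with a mean of at least 5 CPM, were Mrpl16 (r = 0.994), Hs3st1 (0.992), Selenok (0.992), Klk8 (0.991) and Gdap2 (0.990). Those closest to Bcl2l11 were Slc9a9 (r = 0.999), Tmem260 (0.997), Hsd11b1 (0.997), Gcnt1 (0.997) and Cd27 (0.997). Such values are common here, since all 8 points share the split between groups, with 653 and 545 genes reaching an r of 0.95 for Bcl2a1d and Bcl2l11. Slc9a9 had a mean of 38.7 CPM before and 5.17 after IL-33, and Cd27, a TNF receptor family member, of 10.6 and 2.01.

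The wider family was described by a list of its own. Of 17 further BCL-2 family genes, 12 were tested, 4 were higher and 1 was lower after IL-33, with a median log2 fold change of -0.09. Beside this and the lists that follow stand 16.2% higher, 16.1% lower and a median of 0.06 over all genes. Bnip3, which encodes a mitophagy receptor of the outer membrane, rose 3.64-fold from 20.3 to 74.0 CPM (adjusted p = 0.00018), and its relative Bnip3l rose 1.41-fold from 63.4 to 89.4 CPM (adjusted p = 0.000583), a call lost on the TPM scale. Bcl2l2, which encodes the pro-survival protein BCL-W, rose 2.32-fold from 16.5 to 38.4 CPM (adjusted p = 0.00174). Bcl2l15 rose from 0.271 to 0.766 CPM (adjusted p = 0.0114). Bik, a BH3-only gene, fell 1.88-fold from 15.1 to 8.02 CPM (adjusted p = 0.0458), a call held in 10 of 19 alternatives, and that of Bcl2l15 in 13 of 15.

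Downstream of the mitochondrion, both directions were seen. Of 21 genes tested, 6 were higher and 5 lower, with a median log2 fold change of 0.03, against 16.2% and 16.1% of all genes. With limma on log2(TPM + 1), 1 was higher and 9 were lower, where 1032 of 15171 genes were higher and 4655 lower. Birc3, which encodes the ubiquitin ligase cIAP2, rose 2.37-fold from 81.0 to 192 CPM (adjusted p = 0.000208), and Cycs, cytochrome c, 1.57-fold from 101 to 158 CPM (adjusted p = 0.0111). The channels of the outer membrane Vdac2 (1.37-fold, adjusted p = 0.0124) and Vdac1 (1.30-fold, adjusted p = 0.00253) rose slightly. The calls of Cycs, Vdac1 and Vdac2 were lost on the TPM scale. Casp9, the initiator caspase of this pathway, fell 2.03-fold from 30.4 to 15.0 CPM (adjusted p = 0.000229), Birc5, survivin, which also serves in cell division, 2.04-fold from 182 to 88.7 CPM (adjusted p = 0.00108), and Casp2 1.66-fold (adjusted p = 0.000288). Xiap, an inhibitor of caspases, fell 1.41-fold (adjusted p = 0.00302).

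Of 19 tested genes of the p53 pathway, which controls Bbc3, Pmaip1 and Bax, 6 were higher and 3 lower after IL-33, with a median log2 fold change of 0.22. The share of lower genes was close to the 16.1% of all genes, and 16.2% of all genes were higher. Cdkn1a, which encodes the cell cycle inhibitor p21, rose 2.67-fold from 188 to 501 CPM (adjusted p = 0.000525). Mdm2, the ubiquitin ligase of p53, rose 1.87-fold (adjusted p = 0.00108), Tigar 2.39-fold (adjusted p = 0.0017) and Zmat3 1.75-fold (adjusted p = 0.0016). Perp fell 4.04-fold from 8.86 to 2.17 CPM (adjusted p = 0.00672), Trp53inp1 2.16-fold (adjusted p = 0.000152) and Ei24 1.25-fold (adjusted p = 0.0280). All but Ei24 of these 7 were called in the same direction in each of 19 alternatives.

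Among 25 genes that regulate the family or its proteins, 8 were higher and 3 lower, with a median log2 fold change of 0.20, against 16.2% and 16.1% of all genes. Pim2, a kinase that phosphorylates the BH3-only protein BAD, rose 5.81-fold from 25.1 to 146 CPM (adjusted p = 6.55e-06). The NF-κB genes Rel (3.67-fold, from 23.7 to 87.1 CPM, adjusted p = 3.32e-05) and Nfkb2 (3.67-fold, from 107 to 391 CPM, adjusted p = 0.000489) rose, as did Myc (3.13-fold, adjusted p = 7.46e-05). The NF-κB genes Nfkb1 (log2 fold change -0.27, adjusted p = 0.172), Rela (-0.51, adjusted p = 0.0941) and Relb (0.61, adjusted p = 0.0636), named here after their values were seen, did not pass the test with all 8 libraries. Without replicate 3, Nfkb1 (-0.14, adjusted p = 0.0300) and Rela (-0.32, adjusted p = 0.000957) were lower and Relb (0.80, adjusted p = 1.51e-05) was higher. Foxo1, which encodes a transcription factor that activates Bcl2l11 in lymphocytes, fell 1.85-fold from 76.6 to 41.5 CPM (adjusted p = 0.00303), Foxo4 1.47-fold (adjusted p = 0.00551) and E2f1 1.48-fold (adjusted p = 0.0124). Foxo3, also named after its values were seen, was not called with all 8 libraries (0.01, adjusted p = 0.971) or without replicate 3 (0.09, adjusted p = 0.319). Pim2, Rel, Nfkb2, Myc, Foxo1, Foxo4 and E2f1 were called in the same direction in each of 19 alternatives. Without replicate 3 the counts of higher and lower genes were 4 and 5 in the further family genes, 7 and 7 downstream, 9 and 4 in the p53 pathway and 13 and 9 among regulators, in a fit that called 27.5% of all genes higher and 29.7% lower. With limma on log2(TPM + 1) and all 8 libraries, 2 further family genes were higher and 5 lower. The p53 pathway then had 4 and 4, and the regulators 5 and 8. That setting called 1032 of 15171 genes higher and 4655 lower.

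In activated ILC2s that lacked Blimp-1, Bcl2 was the member that differed. Its level was 2.23 times that in Control ILC2s, and no other member was called with all 6 libraries. Prdm1 itself, examined as a check of the labels, stood at 75.2, 92.8 and 74.0 CPM in the Control and 14.6, 11.5 and 11.4 CPM in the Blimp-1-deficient libraries (log2 fold change -2.68, adjusted p = 0.00441), in accord with the labels of all 6. With all 6 libraries 1 member was higher and 0 lower, where 0.45% of 17335 genes were called higher and 0.306% lower, and 2 members had an unadjusted p below 0.05. Without Control replicate 2, 1 member was higher and 1 lower, against 8.25% and 5.72% of 17968 genes. With DESeq2, which called 545 genes higher and 534 lower with all 6 libraries, 1 member was higher and 0 lower.

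Bcl2 was at 62.9, 57.5 and 64.8 CPM in the Control libraries and at 128, 148 and 138 CPM in the Blimp-1-deficient libraries. Each group was narrow, and the groups were far apart. The difference was 2.23-fold (log2 fold change 1.16, SE 0.10, adjusted p = 0.0122) with all libraries and 2.18-fold (log2 1.12, SE 0.07, adjusted p = 0.000512) without Control replicate 2. The size held when any other single library was left out (log2 1.12 to 1.22), but the adjusted p was then 0.0750 to 0.145. In those fits 0 to 7 genes of the whole table were called higher, and with a replicate block 0. With library size alone as the scale, the log2 fold change was 1.62 (adjusted p = 0.824), while the median of all genes was at 0.45.

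In TPM, Bcl2 went from 25.8 and 27.7 in Controls 1 and 3 to 59.0 to 62.9 in the Blimp-1-deficient libraries, that is from the place below Pmaip1 and Bbc3 to the place above them. Its share of the pro-survival transcripts was 5.78% to 7.19% in the 3 Control and 11.6% to 12.7% in the 3 Blimp-1-deficient libraries. D630008O14Rik, on the opposite strand, had at most 11 counts, against at least 10600 for Bcl2 in the Blimp-1-deficient libraries. Some marker sums moved with this result. T cell markers were higher as given above, 5 B cell markers, nearly all of it Cd79b, went from 38.1 to 52.97 TPM in Controls 1 and 3 to 55.5 to 65.5, and 3 ILC3 markers, led by Il22, from 10.7 to 15.5 to 28.6 to 88.4. The 11 epithelial, endothelial and stromal markers went from 140 to 198 to 332 to 416 TPM. Their part in the rise of Bcl2 was not tested.

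**Figure D4:**
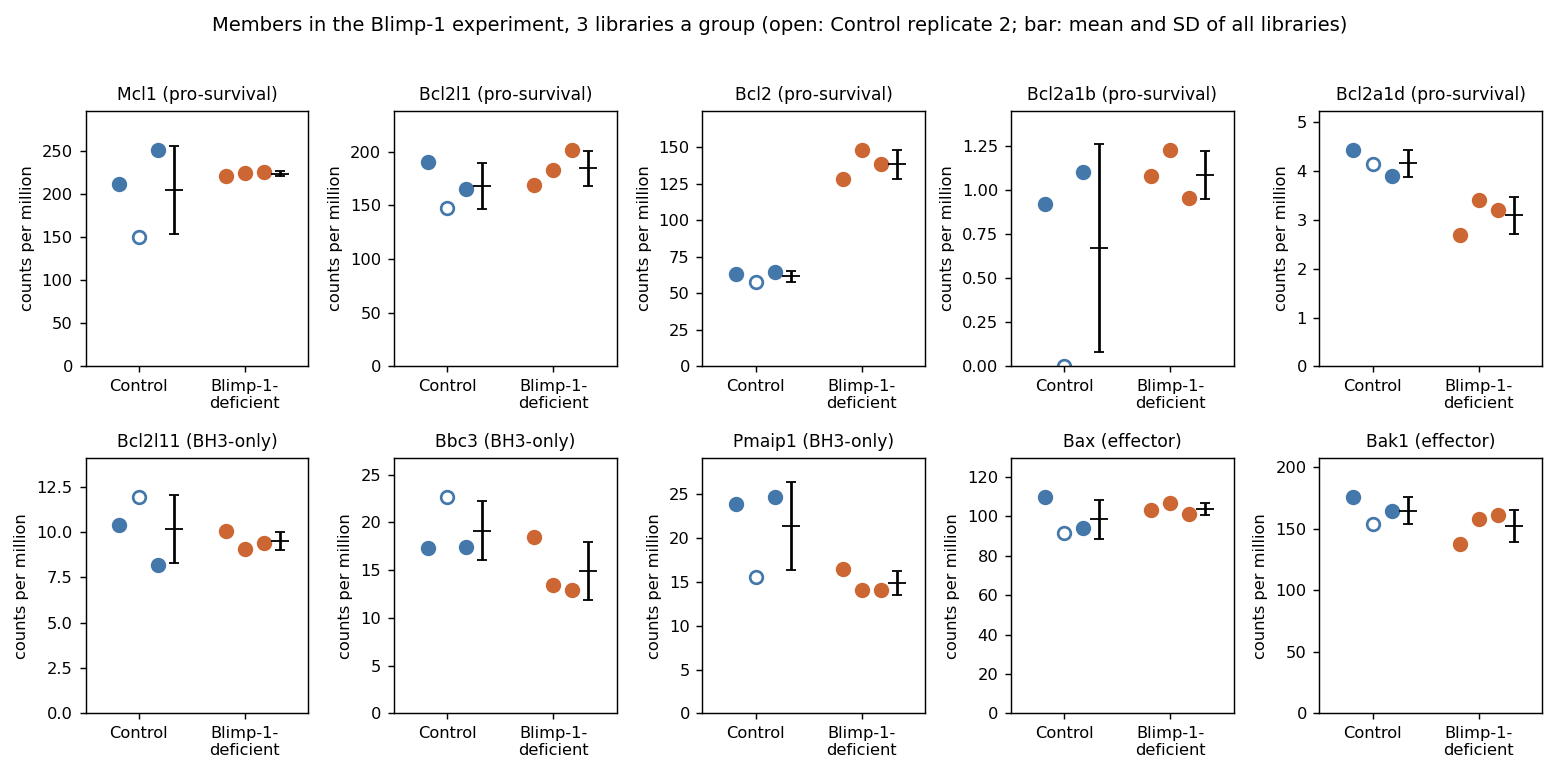
Normalised counts (CPM, y axis, starting at 0 in each panel) of the 10 members in the Blimp-1 experiment, with 1 point per library, filled except for Control replicate 2, and a bar for the mean and SD over all 3 libraries. Bcl2 separates the groups at 57.5 to 64.8 against 128 to 148, Bcl2a1d does so by a small margin, and Pmaip1 and Bak1 do so only among the filled points.

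The other pro-survival members overlapped or did not pass the test. Bcl2l1 was at 191, 148 and 165 CPM in Control and 169, 183 and 202 CPM in Blimp-1-deficient libraries (log2 fold change 0.13, SE 0.13, adjusted p = 0.759), and its log2 fold change was 0.06 without Control replicate 2 (adjusted p = 0.713). Mcl1 was at 212, 151 and 251 CPM and at 221, 224 and 226 CPM (log2 0.13, SE 0.19, adjusted p = 0.856). Without Control replicate 2 its log2 fold change was -0.04 (adjusted p = 0.773), so no direction can be given.

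Bcl2a1d was at 4.44, 4.14 and 3.90 CPM in Control and at 2.68, 3.40 and 3.20 CPM in Blimp-1-deficient libraries. The groups did not overlap, but the log2 fold change of -0.43 (SE 0.19) did not pass the test with all libraries (adjusted p = 0.453) or without Control replicate 2 (-0.42, adjusted p = 0.123). Bcl2a1b had 76, 0 and 104 counts in Control and 89, 95 and 92 in Blimp-1-deficient libraries. The count of 0 in Control replicate 2 allows up to 0.731 CPM, against 0.916 and 1.10 CPM in the other Controls, and Bcl2a1b was not called with that library (log2 0.45, SE 0.66, adjusted p = 0.855) or without it (0.11, adjusted p = 0.776). The log2 fold change of the summed copies was -0.22 (adjusted p = 0.734), or -0.31 (adjusted p = 0.176) without Control replicate 2.

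Pmaip1 was the member that fell once Control replicate 2 was left out. It lies at chr18:66458533-66465565 on the plus strand, and it is the 1 member whose length in the files differs from that of the annotation. It was at 23.9, 15.6 and 24.7 CPM in Control and at 16.4, 14.03 and 14.1 CPM in Blimp-1-deficient libraries. Control replicate 2, with 64 counts, lay within the Blimp-1-deficient range, and Controls 1 and 3, with 1983 and 2335 counts, above it. The log2 fold change was -0.55 (SE 0.19, adjusted p = 0.316) with all libraries and -0.70 (SE 0.09, adjusted p = 0.00468) without Control replicate 2, a 1.62-fold decrease. On the TPM scale with all 6 libraries its sign turned (0.87), where the median of all genes was at 1.28. In the count test without Control replicate 2, 3.53% of all genes had a lower log2 fold change.

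The remaining BH3-only members and the effectors were not called in either fit. Bcl2l11 was at 10.4, 11.9 and 8.18 CPM in Control and at 10.1, 9.08 and 9.38 CPM in Blimp-1-deficient libraries (log2 fold change -0.08, SE 0.17, adjusted p = 0.916). Bbc3 was at 17.3, 22.7 and 17.4 CPM and at 18.4, 13.5 and 12.9 CPM (log2 -0.34, SE 0.19, adjusted p = 0.564). Without Control replicate 2 the sign of Bcl2l11 turned (0.05, adjusted p = 0.847), and Bbc3 was at -0.21 (adjusted p = 0.407).

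Bax was at 110, 91.8 and 94.1 CPM in Control and at 103, 107 and 101 CPM in Blimp-1-deficient libraries, with overlapping groups (log2 fold change 0.07, SE 0.10, adjusted p = 0.843). Bak1 was at 176, 154 and 164 CPM and at 137, 158 and 161 CPM (log2 -0.12, SE 0.11, adjusted p = 0.745). Without Control replicate 2 their log2 fold changes were 0.03 (adjusted p = 0.809) and -0.15 (adjusted p = 0.241). A p above the threshold in 3 against 3 libraries does not show that these members were equal.

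Of the further family genes, 14 were tested and 0 were called in Blimp-1 deficiency with edgeR and all 6 libraries, 3 having an unadjusted p below 0.05 and 0 to 2 being called in one direction over 20 settings. Without Control replicate 2, Bcl2l2 was higher (1.33-fold, adjusted p = 0.0124), and Bok, an effector-like gene (2.12-fold, from 7.55 to 3.56 CPM, adjusted p = 0.00418), and the BH3-only gene Bmf (2.02-fold, from 2.47 to 1.22 CPM, adjusted p = 0.0441) were lower. Of the 21 downstream genes, 1 was higher and 3 were lower in that fit, where 8.25% of all genes were higher and 5.72% lower. Among them were Birc2 (1.45-fold higher, adjusted p = 0.0310), Cycs (1.25-fold lower, adjusted p = 0.0366) and Apaf1, the scaffold that activates caspase-9 (1.23-fold lower, adjusted p = 0.0239). The p53 pathway had 2 higher and 0 lower of 20 in that fit, near the 8.25% of all genes called higher, and 5 with an unadjusted p below 0.05. Those higher were Plk2 (1.49-fold, adjusted p = 0.0222) and Sesn1 (1.26-fold, adjusted p = 0.0495).

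With all 6 libraries, Pim2 was the 1 gene of these lists called by edgeR, which called 0.45% of all genes higher and 0.306% lower. DESeq2 called 5 regulators higher and 3 lower, 1 further family gene in each direction and 1 downstream gene higher. Of all 18418 genes it tested, 545 were higher and 534 lower. Pim2 was 2.72-fold higher in Blimp-1 deficiency, at 211 CPM against 77.0 (edgeR, adjusted p = 0.0294), and 2.47-fold higher without Control replicate 2 (adjusted p = 0.000285). In that second fit 7 of 25 regulators were higher and 3 lower, with a median log2 fold change of 0.04, beside 8.25% higher, 5.72% lower and a median of 0.01 for all genes. Foxo1 (1.45-fold, adjusted p = 0.00447), Rel (1.49-fold, adjusted p = 0.00418) and Nfkb2 (1.55-fold, adjusted p = 0.00846) were higher. Pim1 (1.31-fold, adjusted p = 0.0330), Ywhaz, a 14-3-3 protein that holds BAD (1.30-fold, adjusted p = 0.0121), and Gsk3b (1.26-fold, adjusted p = 0.0144) were lower. Of the genes of these lists that edgeR called without Control replicate 2 and not with it, Foxo1, Rel, Nfkb2, Bcl2l2, Bok, Birc2, Pim1, Ywhaz and Gsk3b were also called by DESeq2 with all 6 libraries. None of them was called in more than 7 of 19 alternatives, and Bok, Cycs, Apaf1, Plk2, Pim1, Ywhaz and Gsk3b had the opposite sign in 1 to 4 of them. Pim2 kept its sign in all 19 and its call in 10.

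Ratios between members within a library do not depend on how libraries are scaled to each other, and they are given as descriptions without a test. The ratio of Bcl2 to Bcl2l11 in TPM, that is of a pro-survival gene to the gene of its antagonist BIM, was 4.28 to 4.76 in Unstimulated and 7.33 to 9.76 in IL-33 stimulated libraries, since Bcl2l11 fell by more than Bcl2. It was 4.22 to 6.95 in Control and 11.1 to 14.3 in Blimp-1-deficient libraries. No library overlapped between the groups of either experiment. The ratio of Mcl1 to Bcl2l11 was 27.8 to 31.7 and 68.7 to 94.8 in the stimulation experiment and overlapped in the Blimp-1 experiment, at 29.6 to 72.2 in Control and 51.4 to 58.0 in Blimp-1-deficient libraries.

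Among pro-survival genes, the ratio of Bcl2l1 to Bcl2 moved from 1.71 to 1.98 in the Unstimulated to 6.95 to 9.07 in the IL-33 stimulated libraries. It was 5.09 to 6.06 in Control and 2.46 to 2.91 in Blimp-1-deficient libraries. The ratio of Bcl2a1b and Bcl2a1d together to Bcl2 was 0.144 to 0.268 and 1.14 to 2.18 in the stimulation experiment, and 0.764 to 0.912 in Control and 0.316 to 0.336 in Blimp-1-deficient libraries. Both ratios were thus higher after IL-33 and lower without Blimp-1 in every library, Control replicate 2 and IL-33 stimulated replicate 3 included.

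The ratio of Mcl1 to Pmaip1, the gene of its antagonist NOXA, was 50.6 to 110 in Unstimulated and 35.1 to 58.9 in IL-33 stimulated libraries, which overlapped. In the Blimp-1 experiment it was 6.85 to 7.88 in Control and 10.4 to 12.4 in Blimp-1-deficient libraries. The ratio of Bax to Bak1 was 0.701 to 0.902 in Unstimulated and 1.06 to 1.37 in IL-33 stimulated libraries. It was 0.874 to 0.954 in Control and 0.958 to 1.15 in Blimp-1-deficient libraries. The groups did not overlap in either experiment, though the gap was narrow in the Blimp-1 experiment. The experiments were normalised apart and differ in time, cytokines and mice, so no comparison is made between them.

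**Figure D5:**
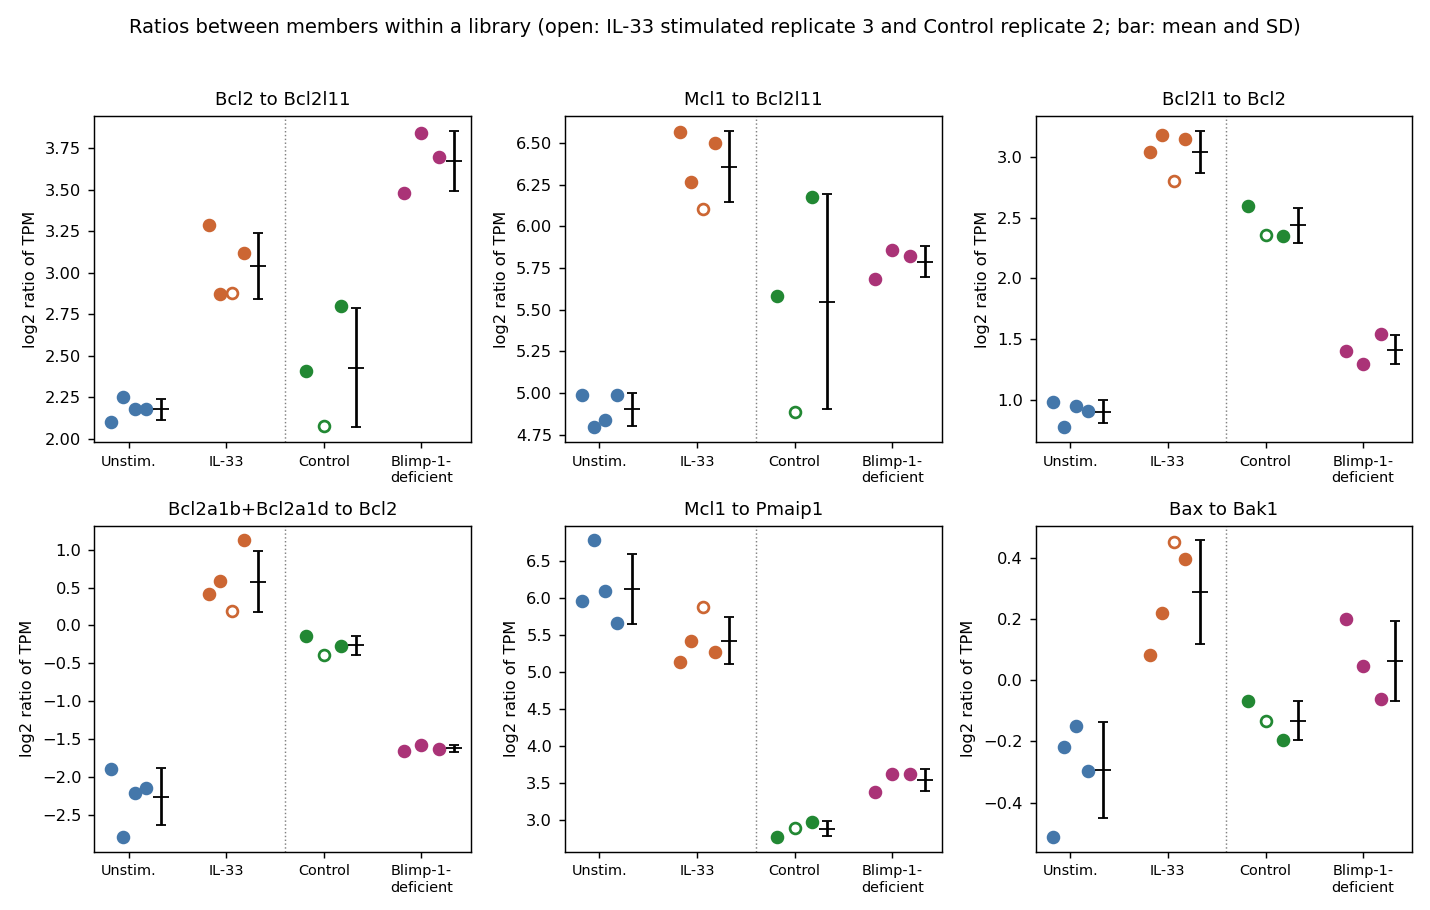
Log2 ratio of TPM (y axis) for 6 fixed pairs of members in the 4 groups (x axis), with 1 point per library, open for IL-33 stimulated replicate 3 and Control replicate 2, and a bar for the mean and SD, the dotted line separating the 2 experiments. The log2 ratio of Bcl2l1 to Bcl2 rises from a mean of 0.90 to 3.04 after IL-33 and falls from 2.44 to 1.41 in Blimp-1 deficiency.

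In the order of levels in the Blimp-1 experiment, Bak1 (271 ± 4.99 TPM, SD, n = 2), Mcl1 (260 ± 38.9) and Bax (247 ± 19.9) were highest in Controls 1 and 3, with overlapping ranges. Bax (265 ± 15.4, n = 3), Mcl1 (263 ± 11.6) and Bak1 (254 ± 8.34) were highest in Blimp-1-deficient libraries and overlapped as well. Bcl2l1 came next in both, at 149 ± 10.7 and 162 ± 8.95 TPM. Bcl2a1b (4.73 ± 0.741 and 5.34 ± 0.691) and Bcl2l11 (4.41 ± 0.615 and 4.78 ± 0.525) were lowest in both and did not differ from each other beyond their spread.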

How the data were processed

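Lung ILC2s were profiled by SMART-seq v4 and Nextera XT libraries with paired reads of 75 bases. By the design text the cells came from 14 mice, whereas figure captions of the study give pooled animals for each point. Per the study's methods, the authors trimmed with cutadapt, aligned with HISAT2 to GRCm38 and counted with Subread; the submitters' processing notes list Bowtie2, DESeq2, Subread and mm10. Whether strand was used and how reads with several matches were counted is not given in the sources used here. The authors deposited raw counts per gene and TPM with gene lengths in a pair of tables per experiment, and 0 columns of samples were unmapped. TPM recomputed from the counts and lengths matched the deposited TPM, with a largest difference of 4e-05 TPM. The dominant loci of Control replicate 2 held 93.9% of its TPM, so its TPM entered no level given in the text, only ratios within it and the limma alternatives.

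Counts were tested in R 4.3.3 with edgeR 4.0.16 (TMM, default filter on low counts, quasi-likelihood, two-sided, Benjamini-Hochberg over all genes tested), per experiment and without covariates. The scripts were run on simulated counts with less spread than these data, as a check of the sign and size of known changes. No limit was set on false or missed calls. Alternatives were DESeq2 1.42.0, other size factors, no filter or a mean count of at least 50, limma 3.58.1 on log2 TPM (pseudocount 1 or 0.1, genes averaging 1 TPM or more), a replicate block, summed A1 copies, and each library left out. CPM are over TMM-scaled library sizes, and SDs are over libraries. A count of 0 allows up to 3 counts, and this limit covers counting error only. For the closest patterns, CPM were put on a log2 scale after a prior count of 2, for genes averaging 5 CPM or more. A locus was called dominant at 1% or more of the counts of a library and at least 10 times its share in the other libraries of the same experiment. Named genes were the 10 members, the listed genes that passed the test with groups that did not overlap (at most 4 a list and direction), the closest patterns and Prdm1. Nfkb1, Rela, Relb and Foxo3 were named outside this rule, after their values were seen. A gene that met this rule is not reported here. The members and lists were chosen with earlier results of these data known. Promoter sequences came from RefSeq, matched by symbol for 9 of the 10 members, and coding sequences from the GENCODE vM21 transcripts. Figures were drawn with matplotlib 3.10.9.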

Additional observations from a re-analysis of the deposited data

Results flagged for a closer look

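Of 20 sets of 4 libraries (10 members in the Unstimulated and in the IL-33 stimulated group), 1 held a library far from the others. Bax stood at 94.7 CPM in Unstimulated replicate 3, with the nearest library at 85.5 CPM, and the gap took 0.905 of the range of the group, above Dixon's 95% critical value. Chance marks about 1 in 20 such sets. All 4 IL-33 stimulated libraries lay above this value.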

How the results depend on the processing

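Of the 10 members after IL-33, Bcl2, Bcl2l1, Bcl2l11, Bcl2a1b and Bcl2a1d kept direction and call under every alternative that tested them, with log2 fold changes of -1.26 to -0.82, 0.87 to 1.37, -2.08 to -1.70, 0.79 to 1.86 and 1.66 to 2.42. The highest adjusted p among them was 0.0446, for Bcl2a1b with the replicate block. The ranges of both A1 genes include the test of the summed copies. That test gave the 1.86 at the top of the range of Bcl2a1b, which reached 1.45 with single libraries left out. The alternatives that join a second choice to the removal of IL-33 stimulated replicate 3 or Control replicate 2, and the one without the dominant loci, were chosen after seeing the data. The number of members higher after IL-33 was 4. Without replicate 3 it was 6, 7 with DESeq2, and 4 with limma on log2(TPM + 1) or with library size alone. In that order these fits called 4328 of 15733, 4570 of 20353, 2202 of 14237 and 3077 of 15733 genes higher. With all libraries it was 3 with limma at both pseudocounts and with a mean count of at least 50, a filter that left Bcl2a1b untested. Those settings called 1032 and 1027 of 15171 and 2637 of 12331 genes higher. Bbc3 turned to -0.19 and -0.21 with limma on log2(TPM + 1) and log2(TPM + 0.1), and Bak1 to -0.27 on both, to -0.075 with library size alone and to -0.073 with limma on log2(TPM + 1) without replicate 3. The calls of Mcl1 (no filter, or without IL-33 stimulated replicate 1) and of Bax (limma) were lost. In Blimp-1 deficiency, 1 member was higher and 0 were lower. The number higher was 0 with library size alone, with limma at both pseudocounts and with the replicate block, and 0 to 1 when a library was left out, 1 only without Control replicate 2. Over all genes, library size alone called 98 higher, limma 1 at each pseudocount and the block 0. Fits without another single library called 0 to 7 genes higher, and that without Control replicate 2 called 1483. The number lower was 1 without Control replicate 2, alone or with limma, library size, the replicate block or DESeq2, and 0 to 1 over single libraries left out. In that order, the fits without Control replicate 2 called 1027, 575, 720, 978 and 1630 genes of the whole table lower. With library size alone and limma at the larger and smaller pseudocount, log2 fold changes turned positive for Bcl2l11 (0.48, 0.83, 1.48), Bcl2a1d (0.042, 0.88, 1.27), Bbc3 (0.23, 1.14, 1.38) and Bak1 (0.34, 1.61, 1.66), and with limma for Pmaip1 (0.87, 1.22). The median of all genes moved to 0.45, 1.28 and 1.69 in these settings, which do not correct for the dominant loci of Control replicate 2. Over single libraries left out, Mcl1 ranged from -0.039 (without Control replicate 2) to 0.30 and Bcl2l11 from -0.22 to 0.045 (without Control replicate 2). Without Control replicate 2, Mcl1 was also at -0.036 with the block and -0.050 with DESeq2, and Bcl2l11 at 0.094 with limma, 0.11 with library size, 0.088 with the block and 0.034 with DESeq2. Bcl2a1b was at -0.22 with the copies summed. The cause of these turns was not tested. Libraries that share a number correlated at -0.145 to 0.282 in the stimulation and -0.134 to 0.122 in the Blimp-1 experiment, and as the design text gives separate mice to each group, the shared numbers were not read as pairs. With the replicate block, 1802 genes were higher and 1898 lower after IL-33, against 2508 and 2484, and 0 and 0 in Blimp-1 deficiency, against 78 and 53. After IL-33 the split was 1805 higher and 3691 lower with library size alone. For the ratios, the alternatives were 84 means with a library left out. In groups of 3 or 4, leaving out 1 library cannot move the mean by as much as the SD. That these means stayed within the SD therefore says nothing about how stable the ratios are. Depth limits Bcl2a1b, with 0 to 104 counts a library, and Control replicate 2.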
